A study of Mus musculus with 20 samples.

Results

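The genes of microRNA-9 (miR-9) and the long transcripts that carry them were examined in the hippocampus of young adult mice whose mothers had breathed air pollution particles during pregnancy. The set held 5 of the 48709 genes in the deposited gene map: the hairpin precursor genes Mir9-1, Mir9-2 and Mir9-3, and the long noncoding host genes Gm3764 (host of Mir9-1) and C130071C03Rik (host of Mir9-2). They were selected by symbol, and Mir9-1 and Gm3764 were picked from the series for their rise in nPM samples. For these 2 genes the values that compare nPM with control are therefore a description without a test, since that contrast chose them. The same contrast was tested in the others, and the difference between the sexes was tested in all members with enough counts. 3 members passed the filter on low counts (Mir9-1, Gm3764 and C130071C03Rik), whereas Mir9-3 was near its limit of detection and Mir9-2 had no count in any sample. Mir9-3hg, the host of Mir9-3, is not a member and is given beside them.

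RNA-seq of total RNA, depleted of ribosomal RNA, was available for 20 C57BL/6 mice (C57BL/6J in the study's methods), 5 females and 5 males of the control group and as many of each sex of the nPM group. Dams inhaled nPM, a nano-sized fraction of urban particulate matter that was collected and re-aerosolized, at 300 per m3 (mg in the labels, μg in the study's methods) from gestational day 2 until birth, with sessions of 5 h on 3 days of each week, and control dams inhaled filtered air on the same schedule. The offspring themselves were not exposed after birth. The hippocampus of the right hemisphere was taken at 17.71 to 18.29 weeks of age in females and 18.57 to 19.14 weeks in males. Sex and age therefore cannot be told apart. The study's methods also describe injections of male mice with EdU, a label of dividing cells, before tissue collection, since neurogenesis was examined in males only. They add that all animals received it, so whether females did is unclear. If not, sex and EdU cannot be told apart either. The study's methods state that the adult offspring came from 5 litters per exposure group, and the litter of each sample is not given. With 5 females and 5 males in each exposure group, some samples must be littermates. Exposure was given to the dams, so the p-values measure the spread between these samples and not that between litters.

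miR-9 is among the most abundant microRNAs of the brain and is highly conserved. Its genes are transcribed as parts of long primary transcripts, from which Drosha and Dgcr8 cut the hairpins and Dicer1 the mature duplex, and either strand of the duplex can be loaded onto an Argonaute protein. miR-9 is best known for its action in neural stem cells, where it lowers progenitor regulators such as Nr2e1 (Tlx), Hes1 and Rest and favors differentiation.

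The mature sequences show what the precursors have in common. According to RefSeq (build GRCm38.p6, which is mm10), the 3 hairpins give the same pair of mature microRNAs, and the capitals mark the seed (bases 2 to 8), with which a microRNA pairs to its targets.
miR-9-5p: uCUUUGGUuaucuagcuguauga
miR-9-3p: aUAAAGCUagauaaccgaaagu

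The hairpins, by contrast, differ outside the mature arms, though Mir9-1 and Mir9-2 do so by only 2 mismatches where they align. A read that lies within a hairpin may therefore match more than 1 precursor, and how such reads were counted is not given. The capitals mark the mature arms in the hairpins, each of which RefSeq places at the position that the gene map gives.
Mir9-1: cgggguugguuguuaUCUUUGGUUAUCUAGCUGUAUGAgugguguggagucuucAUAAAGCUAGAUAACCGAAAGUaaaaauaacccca
Mir9-2: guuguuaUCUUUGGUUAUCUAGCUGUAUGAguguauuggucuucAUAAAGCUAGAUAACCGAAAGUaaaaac
Mir9-3: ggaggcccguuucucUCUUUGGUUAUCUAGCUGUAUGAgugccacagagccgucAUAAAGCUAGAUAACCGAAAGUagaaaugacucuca

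Aligned to each other, Mir9-1 and Mir9-2 had 70 identical bases, 2 mismatches and 17 gaps. Mir9-1 and Mir9-3 had 71 identical bases, 18 mismatches and 1 gap. Mir9-2 and Mir9-3 had 64 identical bases, 8 mismatches and 18 gaps. Between the arms lie 16 bases in Mir9-1 and Mir9-3 and 14 bases in Mir9-2. A library of this kind holds fragments of longer RNA, so the counts at these genes are reads over a hairpin of 72 to 90 bases and not the level of mature miR-9, which was not measured here.

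The 3 loci lie on different chromosomes, all on the plus strand of mm10. Mir9-1 (ENSMUSG00000106493.1) is at chr3:88215598-88215686, within Gm3764 (ENSMUSG00000097156.7, chr3:88206813-88229959). Mir9-2 (ENSMUSG00000065424.2) is at chr13:83738814-83738885, within C130071C03Rik (ENSMUSG00000050334.12, chr13:83721381-83884194). Mir9-3 (ENSMUSG00000093238.1) is at chr7:79505264-79505353, within Mir9-3hg (ENSMUSG00000097023.8, chr7:79500026-79534403). In an annotation of the same build that is later than the authors', Gencode M21, Mir9-1 and Mir9-3 overlap no exon of their hosts and are intronic. Mir9-2 lies wholly inside an exon of its host (chr13:83738170-83741308), so that its reads are also reads of C130071C03Rik.

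RefSeq has 1 start for Gm3764, at 88214482 on chromosome 3, within the span of the gene map, from which Mir9-1 lies 1116 bases downstream. The promoter of this host (chr3:88214232-88214531, plus strand) is shown because Gm3764 is the member whose level separated the sexes. The capitals mark the palindrome TGACGTCA, the full cAMP response element bound by CREB, which was looked for on both strands after the sequence had been seen.
Gm3764 promoter: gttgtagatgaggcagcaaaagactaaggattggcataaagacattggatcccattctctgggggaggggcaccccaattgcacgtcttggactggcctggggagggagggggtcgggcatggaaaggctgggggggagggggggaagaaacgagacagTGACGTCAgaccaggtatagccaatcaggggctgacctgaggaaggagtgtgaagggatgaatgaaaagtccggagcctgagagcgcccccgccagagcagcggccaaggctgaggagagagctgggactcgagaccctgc
The same letters stand once in 1 of the promoters of Mir9-3hg and in none of those of C130071C03Rik in RefSeq, and in 588 of 32851 promoters of this length (1.79%), or 2.81% of those of tested genes. This is a match of letters, and binding was not measured.

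Depth and library makeup set the precision of these values. Total counts per sample were between 19092067 and 38663408, which puts the limit of detection, taken as 3 counts, at 0.0784 to 0.164 CPM (counts scaled to a TMM-adjusted library of 1000000), a limit that covers counting error only. The hippocampal markers were present: the 8 dentate granule neuron genes summed to 339 to 722 CPM and the 12 genes of CA1 and CA3 pyramidal neurons to 838 to 1281 CPM over all samples. Female replicate 4 of the nPM group stood apart, with the lowest total count and 0.309% of its counts on antisense genes, against 0.128% to 0.200% in the other samples. Genes of class TEC (a class of not yet verified transcripts, often unspliced) took 0.853% of its counts, nearly the same as the 0.846% in control female replicate 3. The nPM values of Mir9-1 and Gm3764 within females, and the difference of Gm3764 between the sexes, are given with and without it below. The sexes also differed in makeup. TEC genes took 0.458% to 0.853% of the counts in females and 0.254% to 0.460% in males, and lincRNA genes, the class of all the hosts, took 2.47% to 3.55% in females and 1.43% to 2.15% in males.

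Mir9-1, the precursor on chromosome 3, was higher in nPM samples of both sexes. Counts were 17, 20, 21, 30 and 19 in control females and 29, 21, 51, 13 and 41 in nPM females. They were 31, 10, 11, 28 and 19 in control males and 29, 37, 42, 48 and 48 in nPM males. Scaled to depth, control females had 0.729 ± 0.128 CPM and nPM females 1.16 ± 0.410 CPM (SD, n = 5 each), and 4 of 5 nPM females were above the highest control female. Control males had 0.636 ± 0.325 CPM and nPM males 1.19 ± 0.258 CPM (SD, n = 5 each), and 4 of 5 nPM males were above the highest control male. The groups overlapped through 1 sample each: nPM female replicate 4 (0.712 CPM) lay within the control females, and nPM male replicate 1 (0.769 CPM) lay below control male replicate 1 (1.16 CPM).

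On the log2 scale Mir9-1 was higher in nPM by 0.82 ± 0.20 (SE) over both sexes, and the value was 0.97 ± 0.31 for males alone and 0.67 ± 0.27 for females alone. These are the values the gene was chosen on, and wherever they appear they are a description only. Without nPM female replicate 4 the value in females was 0.80, and over all fits that left out 1 sample it was 0.50 to 0.80 in females, 0.80 to 1.18 in males and 0.73 to 0.90 with both sexes. The nPM difference in males minus that in females, which was not used to choose the gene, was 0.31 ± 0.41 (SE; adjusted p = 0.987) and did not pass p under 0.005, which 0.217% of the 19797 tested genes did. Mir9-1 also did not pass between the sexes, with males lower by a log2 value of -0.11 ± 0.20 (SE; adjusted p = 0.695). With 10 to 51 counts per sample, counting error alone is large for this gene.

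**Figure D1:**
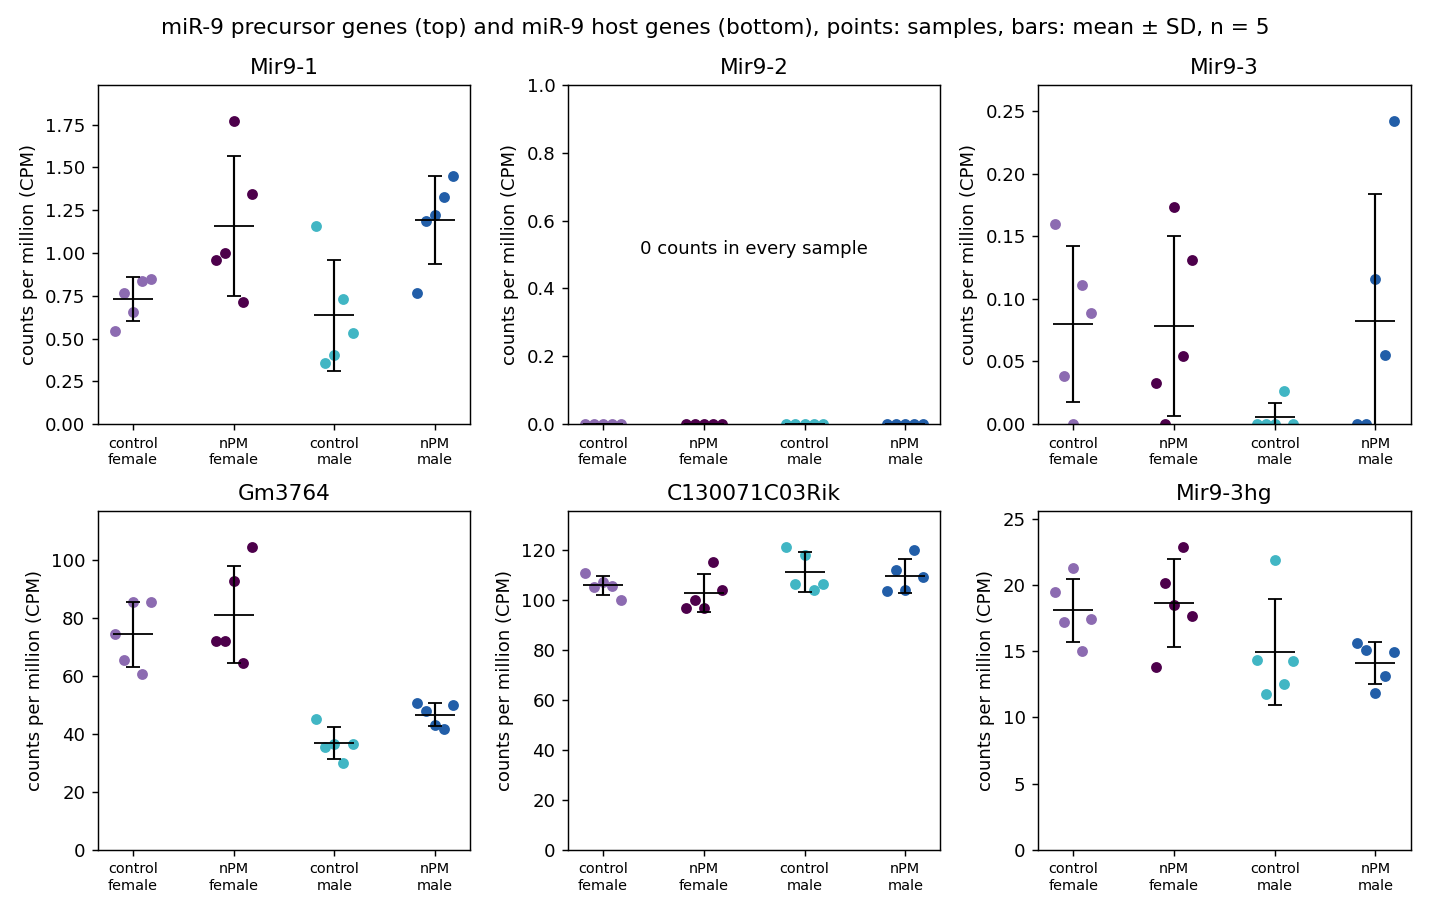
Levels in CPM of the 3 miR-9 precursor genes (top row) and of the 3 host genes (bottom row), with a point for each sample, the mean and the SD of each group of 5, and an axis that starts at 0 in each panel. Mir9-1 is higher in most nPM samples, Mir9-2 is at 0 throughout, and the male samples of Gm3764, between 29.8 and 50.5 CPM, all lie below the females.

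Gm3764, the lincRNA that hosts Mir9-1, had levels that separated the sexes completely. Control females had 74.6, 65.6, 85.5, 60.6 and 85.4 CPM and control males 45.3, 35.3, 36.7, 29.8 and 36.6 CPM. Among nPM samples, females had 71.9, 72.2, 92.6, 64.4 and 104 CPM and males 50.5, 47.9, 43.1, 41.8 and 49.9 CPM. The lowest female (60.6 CPM) was above the highest male (50.5 CPM). The share of all tested genes that separate the sexes in this way is not given here. Males were lower by a log2 value of -0.90 ± 0.094 (SE, exposure as covariate; adjusted p = 2.34e-06). Exact two-sided permutation tests gave p = 0.00794 within control and p = 0.00794 within nPM samples, the smallest value that 5 against 5 allows. The value was -0.96 without nPM female replicate 4 and -0.96 to -0.86 over all samples left out in turn.

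This difference stands among many between the sexes: 31.1% of tested genes passed p under 0.005 and 40.4% an adjusted p under 0.05. A male minus female value as low as that of Gm3764 was found in 6.70% of all tested genes, in 8.22% of the 657 lincRNA genes, in 1.02% of the 15007 protein-coding genes and in 47.8% of the 1325 TEC genes. The median over TEC genes was -0.88, against 0.02 over all genes. Of 129 tested marker entries in 12 cell type and region lists, 20 passed p under 0.005 between the sexes (15.5%, against 31.1% of all genes). These entries count Calb2 both among immature neuron and among striatum and thalamus genes. Higher in males were 4 of 14 astrocyte, 4 of 10 microglial, 3 of 16 neural stem cell and immature neuron, 2 of 10 oligodendrocyte and 1 of 8 dentate granule neuron genes. Lower were 5 of 10 endothelial genes (summed level 217 to 316 CPM in females and 177 to 224 CPM in males) and 1 dentate granule neuron gene. The other 6 lists, among them pyramidal neurons, interneurons, choroid plexus and ependyma, had none. The part of age, EdU, library makeup and cell types in the difference of Gm3764 was not tested.

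**Figure D2:**
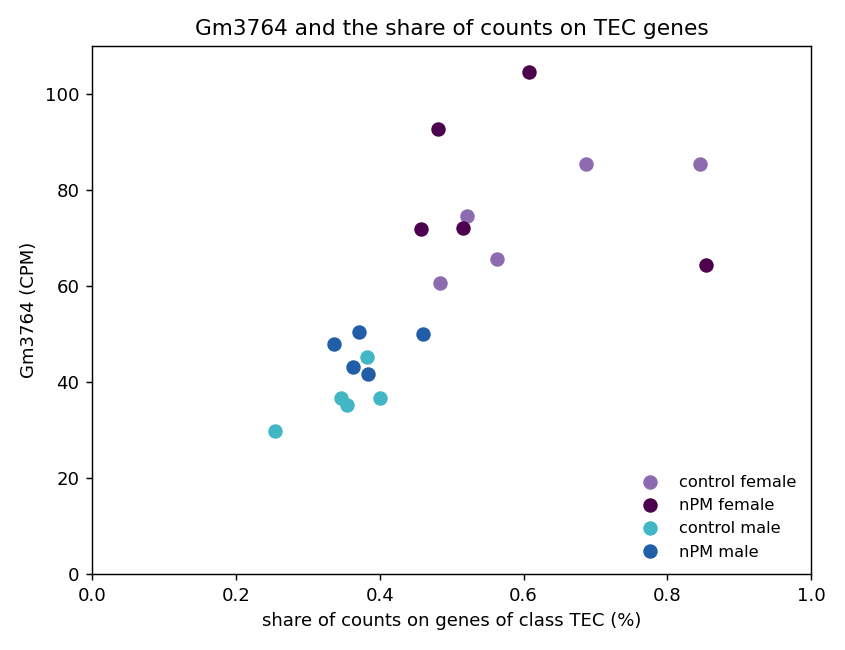
Level of Gm3764 (CPM, vertical axis) against the share of a sample's counts on genes of class TEC (percent, horizontal axis) in each of the 20 samples, colored by group. Males lie at the lower left, with shares up to 0.460%, and females at the upper right, from 0.458%; nPM female replicate 4 has the largest share, 0.853%, but one of the lower female levels of Gm3764, 64.4 CPM.

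The level of Gm3764 in nPM samples was compared within each sex. Mean levels were 36.7 ± 5.54 CPM in control males and 46.6 ± 3.997 CPM in nPM males (SD, n = 5 each), and 3 of 5 nPM males were above the highest control male. In females they were 74.3 ± 11.3 CPM in controls and 81.1 ± 16.8 CPM in nPM (SD, n = 5 each), and the groups overlapped widely. The log2 values for nPM over control, on which the gene was chosen, were 0.36 ± 0.10 (SE) in males, 0.14 ± 0.14 in females and 0.24 ± 0.094 with both sexes. In females the value was 0.21 without nPM female replicate 4 and 0.04 without nPM female replicate 5, the sample with the highest level. The difference between the sexes in this value was 0.23 ± 0.19 (SE; adjusted p = 0.987), so a larger response of males was not established.

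The precursor and its host were then set side by side. Per annotated length, Mir9-1 had 10.4 CPM per kb over all samples and Gm3764 10.3 CPM per kb. Where reads that overlap a gene only in part are counted, the value per kb rises more for a gene of 89 bases than for 1 of 5813 bases. These values therefore do not show that the intronic hairpin and the exons of its host were covered equally. Per 1000 counts of Gm3764 there were 10.1 ± 2.73 counts of Mir9-1 in females of the control group and 14.1 ± 3.02 in those of the nPM group, while males had 17.1 ± 7.39 as controls and 25.8 ± 6.44 after nPM (SD, n = 5 each). The means of this ratio were thus higher in males, in whom the host was lower. With the host's log2 CPM added as a covariate to sex and exposure, the nPM difference of Mir9-1 in log2 CPM was 0.60 ± 0.23 (SE), against 0.80 ± 0.21 without it, where both genes had been chosen for the same rise.

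Across samples the 2 genes followed each other loosely. Since the sexes form separate clusters of Gm3764, no correlation over all samples is given. Pearson's r of log2 CPM was 0.55 in the 10 females (Spearman's rho 0.39), but -0.16 after the 2 samples farthest from the median of Gm3764 had been left out. In the 10 males it was 0.64 (rho 0.62), and 0.68 without the 2 farthest samples. These values contain the difference between exposure groups that chose both genes. For deviations from the 4 group means r was 0.36 (rho 0.28, n = 20), and 0.24 without the 2 farthest samples. All are given as descriptions, since the reads share libraries and, near the hairpin, the same transcript.

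**Figure D3:**
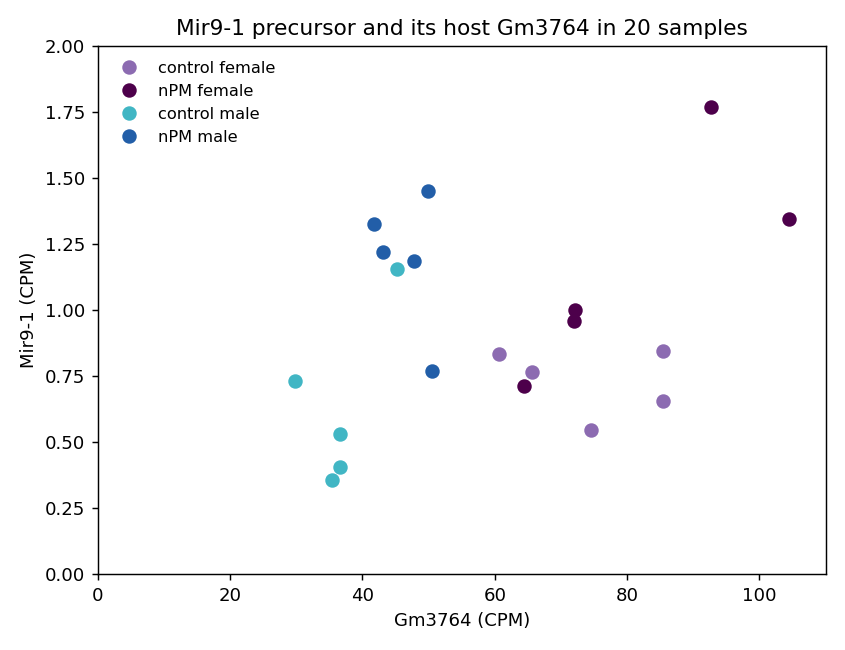
Level of the precursor Mir9-1 (CPM, vertical axis) against that of its host Gm3764 (CPM, horizontal axis) in the 20 samples, colored by group, with both axes from 0. The sexes are separated along the host's axis and not along that of Mir9-1, which reaches 1.77 CPM in a female and 1.45 CPM in a male, both nPM.

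Other microRNA genes lie at the Mir9-1 site. Mir3093, the precursor of an unrelated microRNA, starts 427 bases before Mir9-1 in the same intron and had 9.96 CPM per kb. Control and nPM females had 1.03 ± 0.281 and 0.853 ± 0.431 CPM of it, and control and nPM males 0.653 ± 0.332 and 0.932 ± 0.114 CPM (SD, n = 5 each). The lower mean of nPM females rests on replicate 4, with 3 counts (0.164 CPM). The other nPM females had 1.22, 0.715, 1.15 and 1.02 CPM, within the range of control females (0.726 to 1.39 CPM). A fit of Mir3093 without replicate 4 was not made. Its nPM log2 value with both sexes was 0.12 ± 0.29 (SE; adjusted p = 0.9998) and did not pass. Whether Mir9-1 and Mir3093 differ in their response was not tested. Gm25641, the antisense precursor of miR-9b, spans chr3:88215589-88215696 on the minus strand and so covers all of Mir9-1. It had 9 counts over all 20 samples where Mir9-1 had 565. The strand setting of the counting is not given in the sources used here.

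C130071C03Rik, the host of Mir9-2, was the most abundant member and the least variable. Control females had 111, 105, 107, 106 and 99.8 CPM and nPM females 97.0, 100.1, 96.9, 115 and 104 CPM. Control males had 121, 106, 118, 104 and 106 CPM and nPM males 104, 112, 104, 119.95 and 109 CPM. All 4 groups overlapped. Per length the level was 19.0 CPM per kb, against 10.3 for Gm3764 and 3.77 for Mir9-3hg, which orders the hosts. The nPM log2 value was -0.03 ± 0.044 over both sexes (SE; adjusted p = 0.9998), -0.02 ± 0.066 in males (adjusted p = 0.986) and -0.03 ± 0.071 in females (adjusted p = 0.9999). None of these passed p under 0.005, which 0.141% of tested genes did over both sexes, 0.207% did within males and 0.0909% within females. The exact permutation tests within a sex gave p = 0.762 in males and p = 0.413 in females. The sexes differed by a log2 value of 0.08 ± 0.044 (males over females, SE; adjusted p = 0.135), which also did not pass.

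Mir9-2 itself was listed with 0 counts in all 20 samples, although its host was well covered. A count of 0 allows up to 3 counts in a library, or 0.0784 to 0.164 CPM, so lower levels cannot be seen. The same holds for most precursors in such a place. Of 282 microRNA genes that lie wholly inside an exon of another gene on the same strand, 24 had any count (8.51%). Of 143 that lie only partly over such an exon, 82 had one (57.3%). Of 1613 that lie over no exon of another gene, 938 had one (58.2%). Of 164 over an exon on the opposite strand only, 107 had one (65.2%). How the authors' counting treated reads that fall on 2 genes is not given in the sources used here, so the 0 of Mir9-2 is no measure of its transcription.

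Mir9-3, the precursor on chromosome 7, had 38 counts over the series. Control females had 5, 1, 0, 4 and 2 counts, nPM females 1, 0, 5, 1 and 4, control males 0, 0, 0, 1 and 0, and nPM males 0, 0, 4, 2 and 8. Only 6 samples had more than the 3 counts that a count of 0 allows. The mean was 0.0827 CPM in nPM males and 0.00523 CPM in control males, a difference that an exact permutation test did not call (two-sided, p = 0.167). In females the means were 0.0785 CPM in nPM and 0.0797 CPM in control samples (exact permutation p = 0.976). Control males were below control females (exact permutation p = 0.0476, 1 of 20 such tests run on these genes and their neighbors), while the same test of nPM males against nPM females gave p = 0.952 (exact). Per annotated length, Mir9-3 had 0.684 CPM per kb and its host 3.77 CPM per kb.

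Mir9-3hg, the host of Mir9-3, had 18.1 ± 2.39 CPM in females of the control group, 18.6 ± 3.33 CPM in those of the nPM group, and 14.96 ± 4.03 CPM and 14.1 ± 1.59 CPM in the males of these groups (SD, n = 5 each). The groups overlapped. Its nPM log2 value was -0.02 ± 0.10 over both sexes (SE; adjusted p = 0.9998), -0.04 ± 0.15 in males (adjusted p = 0.985) and 0.02 ± 0.14 in females (adjusted p = 0.9999). Between the sexes it was lower in males, by a log2 value of -0.34 ± 0.10 (SE; adjusted p = 0.0126). It passed p under 0.005, a call that was lost in 12 of the 20 fits that left out 1 sample, with values from -0.40 to -0.31.

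The genes around the hairpins were taken without regard to their values: all those that overlap a member or start within 250000 bases of a hairpin. Around Mir9-1, 22 of 34 genes were tested and 0 passed p under 0.005 with both sexes, by limma-voom, with 2 at an unadjusted p under 0.05 and a median log2 value of -0.00089. In these counts, which leave out Mir9-1 and Gm3764, the 2 were Tsacc (-0.53 ± 0.21, SE), which encodes a cochaperone of testis, and Nes (0.31 ± 0.14, SE), the intermediate filament of neural stem cells. In males 2 of the 22 passed p under 0.005, beside 0.207% of all tested genes: Bcan, a brain proteoglycan, was higher by 0.28, and Bglap3 was lower by a log2 value of -2.07, both with an adjusted p = 0.963. Around Mir9-2, 4 of 4 genes were tested and 0 passed p under 0.005 or 0.05, with Mef2c, a neuronal transcription factor, at -0.35 ± 0.26 (SE). Around Mir9-3, 17 of 26 genes were tested and 0 passed p under 0.005 or 0.05.

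**Figure D4:**
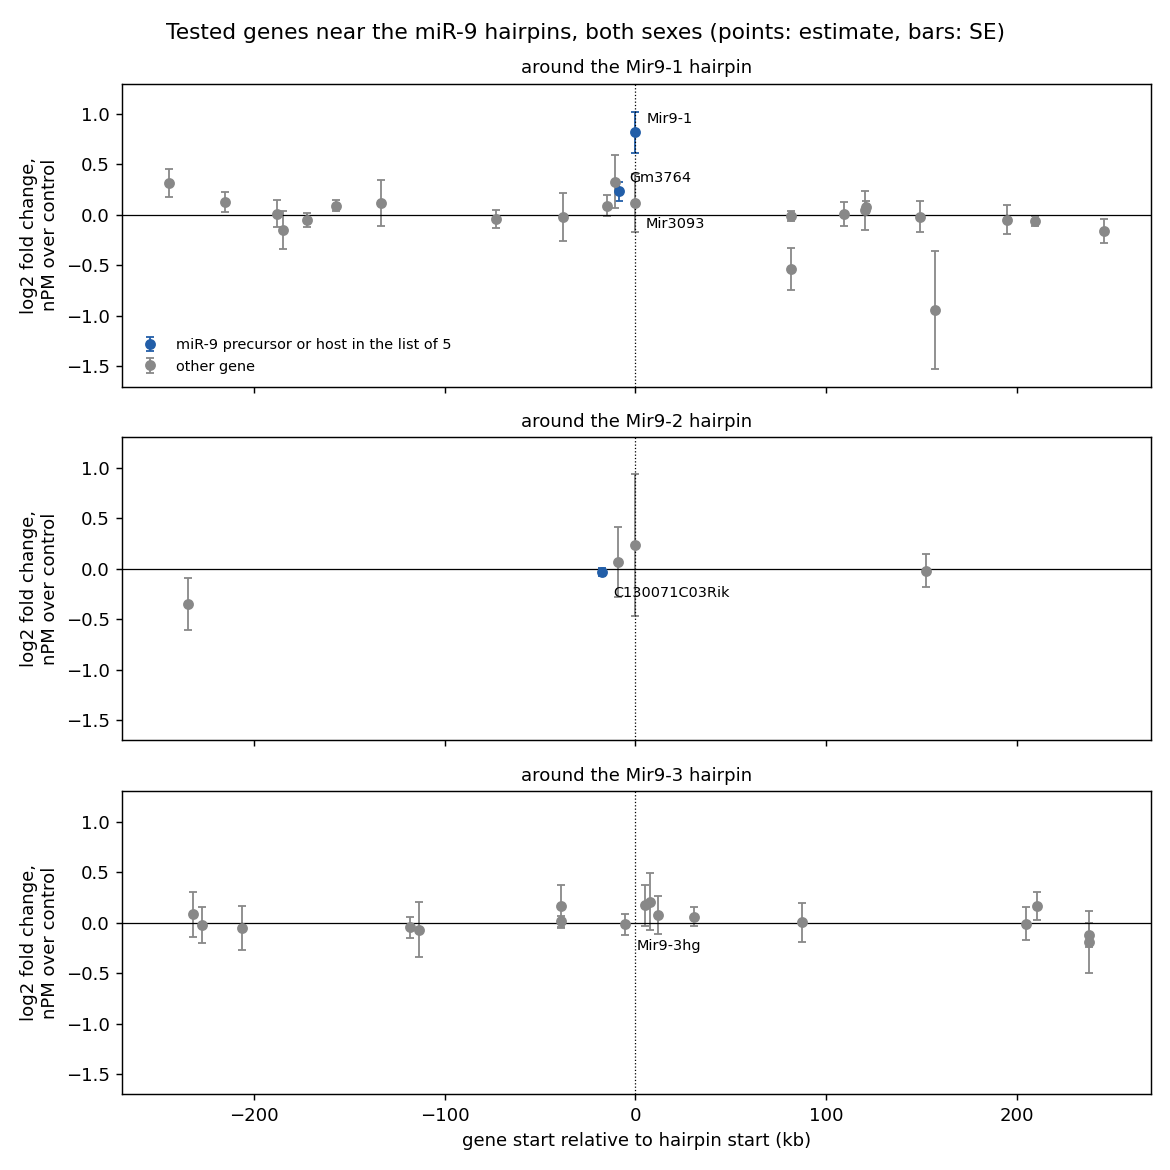
Log2 fold change of nPM over control with both sexes (vertical axis, bars are SE) for each tested gene near a miR-9 hairpin, by the distance of its start from the hairpin (kb, horizontal axis). Mir9-1, at 0.82, was picked for this value, so its place above its neighbors, from -0.94 to 0.33, follows from that choice. The genes around Mir9-3 lie between -0.19 and 0.21.

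Several genes around Mir9-3 were lower in males. The TEC genes A330074H02Rik, 2900037B21Rik and Gm37608, which lie within Mir9-3hg on its strand, had male minus female log2 values of -1.43, -1.81 and -1.71, beside -0.34 for Mir9-3hg, and the difference from the host was not tested. TEC genes outside it, Gm44639 and Gm39041, had -1.15 and -1.79, and the TEC class as a whole had a median of -0.88 with 66.9% of its genes past p under 0.005. Of the 17 tested genes around Mir9-3, Mir9-3hg included, 7 passed p under 0.005 between the sexes, all lower in males, where 31.1% of all tested genes passed. Around Mir9-1, 3 of 22 passed, against the same share: Mef2d at -0.37, lower in males, and Naxe at 0.35 and Cct3 at 0.22, both higher in males.

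Described targets of miR-9 were then counted. Of 32 target genes, written down from general knowledge, 31 were tested and 0 passed p under 0.005 over both sexes or within either sex (limma-voom; at an unadjusted p under 0.05 there were 2 in males and 0 otherwise). With both sexes 17 were above 0 and 14 below, with a median of 0.01 against -0.01 over all genes. The 4 with the smallest p were Fgfr1, a growth factor receptor (0.23 ± 0.12, SE), Elavl2, a neuronal RNA-binding protein (-0.12 ± 0.074), Actl6a, the progenitor subunit of the BAF chromatin complex that neurons replace (0.13 ± 0.075), and Meis2, a homeobox gene (-0.20 ± 0.12). The progenitor regulators Nr2e1, Rest and Hes1 had values of 0.12 ± 0.098, 0.05 ± 0.099 and 0.04 ± 0.11, none past the threshold. Between the sexes 3 targets were higher and 3 lower in males at p under 0.005, against the 31.1% of all genes.

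**Figure D5:**
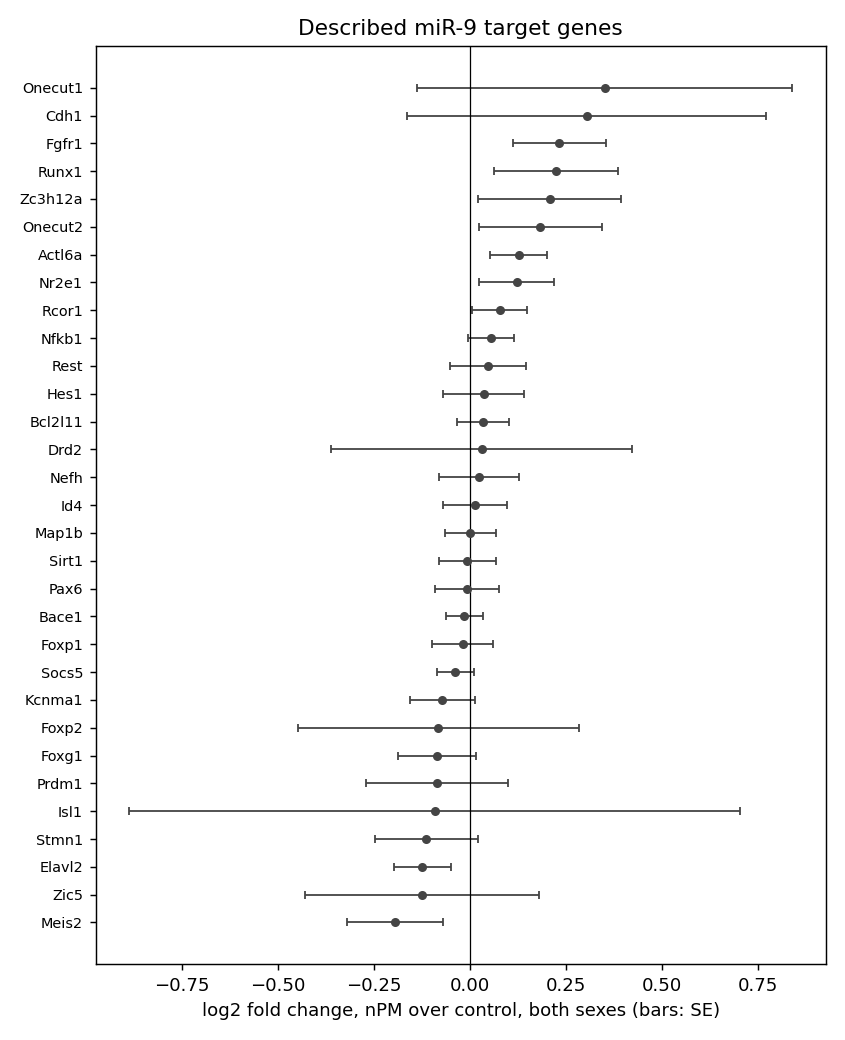
Log2 fold change of nPM over control with both sexes (horizontal axis, bars are SE) for the 31 tested genes of the list of described miR-9 targets, ordered by value. The values run from -0.20 (Meis2) to 0.35 (Onecut1), and none passed p under 0.005.

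For the genes that make and use microRNAs no call was made for nPM. Of 21 listed genes 19 were in the gene map by symbol and 18 were tested, and 0 passed p under 0.005 or 0.05 in either sex or both (limma-voom), with values from -0.04 to 0.04 with both sexes. The 4 with the smallest p were Ddx17 (0.04 ± 0.038, SE) and Ddx5 (0.03 ± 0.043), RNA helicases of the Drosha complex, Drosha itself (-0.04 ± 0.054) and Ran (0.04 ± 0.058), which drives the export of hairpins by exportin 5. Between the sexes 8 of the 18 were lower and 3 higher in males at p under 0.005, where 31.1% of all genes passed, among them Tnrc6c at -0.53, Ago2 at -0.34, Dicer1 at -0.22, Drosha at -0.22 and Ran at 0.39.

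As a class, other microRNA genes showed no call for nPM with both sexes: of 160 tested, 0 passed p under 0.005 (limma-voom) and 2 had an unadjusted p under 0.05, both higher in nPM, the larger being Mir30e at 0.73. Their values ran from -0.58 to 0.73 with a median of -0.01, and the medians were 0.21 within males and -0.13 within females. Between the sexes their median was -0.63, males being lower, with 62 of 160 lower and 3 higher at p under 0.005, where 31.1% of all genes passed. Mir9-1 had -0.11 in that comparison. The most highly counted were Gm23935, Gm24270, Gm24187, Gm25911 and Mir703, with nPM log2 values from 0.07 to 0.20. Of 10 host genes named after the microRNA they carry, Mir9-3hg included, 7 were tested and 0 passed p under 0.005 or 0.05 for nPM with both sexes. Between the sexes Mir124a-1hg, host of another microRNA of neurons, was lower in males by a log2 value of -0.64 ± 0.091 (SE; adjusted p = 2.38e-05), next to -0.90 for Gm3764, while Mir22hg was higher at 0.31.

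Genes with the pattern most like each member over the 20 samples were named by Pearson's r of log2 CPM. For Gm3764 these were Nat10 (0.94), Fam228a (0.94), AI480526 (0.94), Gm29358 (0.94) and Miat (0.93), of which Miat and AI480526 are lincRNAs, and all 5 were lower in males, by log2 values from -1.83 to -0.35. With the group means taken out, 0 of these 5 were still among the closest. For C130071C03Rik they were Srpk2 (0.90), Nap1l1 (0.89), Negr1 (0.89), Fgf14 (0.88) and Adam22 (0.88), and 3 of the 5 stayed among the closest with the group means taken out. For Mir9-1 the closest were Foxo6 (0.68), Pik3r2 (0.64), Jph3 (0.64), Rnf126 (0.63) and Fibcd1 (0.62), of which 1 stayed, Rnf126. These are descriptions, with the 20 libraries shared by all genes.

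Among the same 129 marker entries, 0 passed p under 0.005 for nPM over both sexes or within either sex (limma-voom). At an unadjusted p under 0.05 there were 7 over both sexes, 7 in males and 6 in females. The list medians were between -0.09 and 0.09 over both sexes, -0.45 and 0.21 within males, and -0.22 and 1.03 within females. Choroid plexus genes gave the extremes of -0.45 in males and 1.03 in females. Several lists were one-sided. The 10 oligodendrocyte genes all had values above 0 in males (median 0.21) and a median of -0.08 in females. In females all 10 microglial (median 0.18) and all 10 endothelial genes (median 0.23) were above 0. With both sexes all 10 microglial genes were above 0, while 11 of 12 interneuron and 7 of 7 tested ependymal genes were below 0. Among the 16 genes of neural stem cells and immature neurons, where miR-9 acts, the median was 0.06, 1 was higher and 1 lower at an unadjusted p under 0.05, and summed levels in CPM were 265 to 346 (control) and 245 to 335 (nPM) for females, and 341 to 407 (control) and 325 to 426 (nPM) for males. Choroid plexus genes varied most between samples, without a call for nPM. Their sums were 46.9 to 514 CPM in control females and 57.3 to 8496 CPM in nPM females. In males they were 36.1 to 7522 CPM (control) and 79.9 to 5755 CPM (nPM). In bulk tissue, fewer cells of a type and less RNA per cell cannot be told apart.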

How the data were processed

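RNA-seq counts of 20 hippocampal samples were analyzed. Per the labels and the study's methods, the authors checked reads with FastQC, trimmed adapters where needed with Trimmomatic, used HISAT2 for alignment to mm10 and featureCounts 1.5.0-p3 with Gencode M11 for counting per gene. The deposited counts are whole numbers without normalization for 48709 genes. The deposited gene map, from which symbols, classes and positions were taken, also holds the authors' mean RPKM per gene, which was used in no test. Multi-mapping and overlap settings are not given in the sources used here.

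Total counts were between 19092067 and 38663408 per sample. Genes were kept by filterByExpr of edgeR 4.0.16 over the 4 groups (minimum count 10, minimum total 15), which left 19797. limma-voom (limma 3.58.1, R 4.3.3; offset of 0.5 counts, TMM factors, empirical Bayes, two-sided) was fitted for exposure with sex as covariate, for exposure within each sex, for their interaction, and for sex with exposure as covariate. The threshold was p under 0.005, beside a Benjamini-Hochberg adjusted p under 0.05 over all tested genes. CPM used TMM library sizes. Single low genes were compared by exact permutation in scipy 1.17.1. DESeq2 1.42.0, the edgeR quasi-likelihood test, RLE scaling, other filters, quality weights, 1 fit of the 4 groups, a replicate block and samples left out in turn were alternatives. The fits were tested on simulated data. Sequences came from RefSeq (GRCm38.p6), and exons under the hairpins from Gencode M21.

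The members and the gene lists were chosen with earlier results of these data known. The lists were described miR-9 targets, microRNA biogenesis, and markers of 12 cell types or regions (astrocytes, neural stem cells and immature neurons, dentate granule neurons, CA1 and CA3 pyramidal neurons, GABAergic interneurons, oligodendrocytes, their precursors, microglia, endothelium, choroid plexus, ependyma, and striatum with thalamus). Named were the members, genes that overlap them or start within 250000 bases of a hairpin, the 5 genes most correlated with each tested member, up to 4 genes a list with the smallest nPM p with both sexes, and up to 5 other microRNA genes and host genes with the highest counts. Nr2e1, Rest, Hes1, Mir30e and genes given for their sex difference were named outside this rule after their values were seen.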

Additional observations from a re-analysis of the deposited data

Results flagged for a closer look

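Each gene was looked at for a sample far from the others of its group, in 20 sets of 5 samples, of which chance flags about 1 in 20. 1 was found: Mir9-3 in control male replicate 4 had a log2 CPM of -4.67, against -5.75 for the nearest of the other control males. This value is a single count where the others had 0, so it lies within counting error.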

How the results depend on the processing

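Outside samples left out in turn, 138 of 140 values of single genes under the other tests, scalings and filters kept their direction and, where tested, their side of p under 0.005. With sample quality weights the nPM value of C130071C03Rik in males was 0.013 in place of -0.02, and that of Mir9-3hg with both sexes 0.0073 in place of -0.02, both near 0 and without a call. For the nPM values of Mir9-1 and Gm3764, which chose these genes, only the direction was compared, and it supports nothing. The number of genes at p under 0.005 with both sexes (28) was 43 with the DESeq2 Wald test, 71 without a filter, 15 with a mean of at least 50 counts and 53 with quality weights. In males (41) it was 113 with DESeq2 and 130 without a filter. In females (18) it was 55 with DESeq2, 87 without a filter and 44 with quality weights. For the sex difference in the nPM effect (43) it was 66 with edgeR, 89 with DESeq2, 149 without a filter and 20 with a mean of at least 50 counts. The causes were not tested. The filter at a mean of 50 counts leaves no value for Mir9-1. Without a filter Mir9-3 had an nPM value of 0.84 ± 0.55 (SE; limma adjusted p = 0.9998).

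With 1 sample left out in turn, the numbers of genes ran from 17 (without control female replicate 1) to 47 (without nPM female replicate 4) with both sexes, from 23 (without nPM male replicate 5) to 78 (without nPM male replicate 4) in males, from 10 (without nPM female replicate 5) to 48 (without nPM female replicate 4) in females, from 24 (without control female replicate 3) to 77 (without control female replicate 1) for the sex difference in the nPM effect, and from 5485 to 6334 between the sexes. The direction turned for values near 0: C130071C03Rik in males (-0.051 to 0.0135) and its sex difference (-0.0034 to 0.063), Mir9-3hg with both sexes (-0.057 to 0.046), in males (-0.12 to 0.092), in females (-0.048 to 0.13) and in its sex difference (-0.17 to 0.084), and the CPM difference of Mir9-3 in females (-0.025 to 0.019).

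The labels do not say whether replicate numbers pair the samples. Deviations of samples with the same number had correlations of -0.18 to 0.046 in females and -0.36 to 0.16 in males. For other numbers they were -0.10 to 0.18 in females and -0.28 to 0.31 in males. With 5 pairs of the same number in each sex, these values cannot settle whether the samples were paired. With the replicate block the counts were 20 with both sexes, 35 in males, 22 in females and 43 for the sex difference in the nPM effect, and no call differed among the tested values of C130071C03Rik and Mir9-3hg or in the sex difference of Mir9-1 and Gm3764. The nPM values of the latter pair were given no p. For Gm3764 the sex difference in the nPM effect was 0.24 ± 0.10 (SE) with the block, against 0.23 ± 0.19 (SE) without it. The block could not be fitted for the comparison of the sexes, because a number is nested in 1 sex.

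Depth limits Mir9-1 and Mir9-3 most. Mir9-1 had 10 to 51 counts a sample, and for Mir9-3 and Mir9-2 absence of a difference cannot be read from these data. Reads over a hairpin are not mature miR-9. Sex cannot be told apart from age, nor from EdU if only males received it.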
